A study of Mus musculus with 12 samples.

Results

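The 33 genes described here mark epithelial cells: the keratins, junction proteins, apical and secreted proteins, transcription factors and related regulators used by lining cells such as those of the uterine epithelium. They were chosen by symbol, and all 33 were found among the 22294 genes of the deposited table. The table holds mouse RNA sequenced from endometrial cells that had been dissociated with trypsin and collagenase and then pulled down on magnetic beads against F4/80, a surface protein of mouse macrophages. The labels call the sorted cells macrophages, and the genes are read here as marks of epithelial cells in that sort.

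The 12 libraries form 4 groups of 3. Primed MSC libraries came from mice modelled for intrauterine adhesions (IUA, scarring that joins the walls of the uterine cavity) and then treated with primed mesenchymal stromal cells. Control MSC libraries came from IUA mice treated with control stromal cells, IUA libraries from the modelled mice without stromal cells (named Matrigel in the labels), and Sham libraries from sham-operated mice. Primed MSC, Control MSC and IUA are called the IUA groups below. By the series title the stromal cells are hUC-MSCs, the usual abbreviation for human umbilical cord cells, and the priming was with inflammatory cytokines. Which cytokines, the strain and age of the mice, the time of sampling, whether Sham mice received Matrigel and whether mice were pooled are not given in the sources used here. Nothing in the labels ties a library to a single mouse, so each p-value rests on the spread among the 12 libraries, part of which may be technical.

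Simple epithelia such as the lining and glands of the uterus form sheets whose cells are held together by E-cadherin and desmosomes and sealed at the apical side by claudins and occludin. Inside each cell a network of keratin filaments anchors these junctions. Grainyhead, ETS and related transcription factors keep this programme on, and the zinc-finger proteins SNAI and ZEB are known to repress it by binding E-box sequences in promoters such as that of Cdh1.

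Promoter sequences are shown for 4 of the junction and surface genes whose windows hold the E-box bound by SNAI and ZEB. RefSeq windows of the 250 bases before the annotated start (build GRCm38.p6) were matched for 23 of the 33 genes, in 29 windows. No entry was matched for Krt19, Cdh1, Pkp3, Cd24a, Ehf, Grhl2, Sox17, Esrp1, Esrp2 and St14. The sequences run 5′ to 3′ on the strand of the gene. Capitals mark the E-box CAGGTG, or CACCTG on the other strand, and in Muc1 also a grainyhead motif, AACCNGTT, read on either strand.
Epcam promoter, chr17:87635729-87635978, plus strand: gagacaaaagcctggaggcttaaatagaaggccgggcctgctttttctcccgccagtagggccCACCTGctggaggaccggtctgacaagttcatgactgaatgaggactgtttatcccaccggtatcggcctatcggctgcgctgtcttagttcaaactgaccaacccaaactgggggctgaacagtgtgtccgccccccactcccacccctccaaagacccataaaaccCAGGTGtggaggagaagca
Cldn4 promoter, chr5:134946935-134947184, minus strand: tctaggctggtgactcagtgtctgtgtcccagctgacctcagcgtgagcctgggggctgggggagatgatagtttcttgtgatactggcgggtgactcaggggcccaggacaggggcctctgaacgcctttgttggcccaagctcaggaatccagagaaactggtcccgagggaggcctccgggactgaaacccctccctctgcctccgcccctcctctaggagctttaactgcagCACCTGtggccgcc
Lsr promoter, chr7:30973470-30973719, minus strand: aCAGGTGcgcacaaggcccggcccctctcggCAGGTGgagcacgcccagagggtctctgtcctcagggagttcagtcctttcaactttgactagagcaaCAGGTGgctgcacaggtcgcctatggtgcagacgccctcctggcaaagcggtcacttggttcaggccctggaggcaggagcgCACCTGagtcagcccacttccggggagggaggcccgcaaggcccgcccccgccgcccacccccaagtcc
Muc1 promoter, chr3:89228806-89229055, plus strand: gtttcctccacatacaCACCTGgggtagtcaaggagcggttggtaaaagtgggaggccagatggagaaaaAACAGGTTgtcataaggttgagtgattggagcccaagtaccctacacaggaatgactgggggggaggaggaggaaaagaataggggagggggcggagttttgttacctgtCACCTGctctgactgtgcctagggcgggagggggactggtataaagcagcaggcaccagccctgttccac

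The E-box stood at position -187 and again at -19 in Epcam, counted from the annotated start, and at -14 in Cldn4. Lsr held it 4 times, and Muc1 2 times together with a grainyhead motif at position -180. In all, the E-box was found in 19 of the 29 windows (65.5%), which belong to 17 of the 23 genes, against 17.2% of all 32851 windows in the table and 15.6% of the 11810 windows of genes tested here. The grainyhead motif was in 13.8% of the epithelial windows (Muc1, Prom1 and Rab25), against 1.58% of the windows of tested genes. The GC box GGGCGG (65.5% against 56.3%) and the CCAAT box (31.0% against 34.9%) were closer to the tested genes. The TATA box TATAAA was in 3.45% against 7.02%. The AP-1 motif TGANTCA was in 13.8% against 4.95%. Like the grainyhead share, that of AP-1 rests on 4 windows of 3 genes. All motifs were searched on both strands, the paired windows of Wfdc2 and those of Ocln overlap, and median GC content was 60.8% in the epithelial windows and 59.2% in those of tested genes. These matches describe letters in a window and were not set against binding data.

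Library totals were close, between 505460 and 563751 summed FPKM (fragment counts scaled to transcript length and to the size of the library). The step that a single fragment leaves between low FPKM values was recovered in all 12 libraries and placed their depth between about 15100000 (Sham replicate 3) and 23500000 (Sham replicate 1) fragments or reads. Macrophage markers were present in every library, and none of the 20 in the list was at 0. Their summed share of FPKM was 7.47 to 7.97% in Primed MSC, 7.36 to 7.98% in Control MSC and 6.92 to 7.56% in IUA, against 2.77 to 3.24% in Sham. Most comparisons below were made against the same 3 Sham libraries, and those among the IUA groups share libraries too, so they are not independent of each other.

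The summed share of the 33 epithelial genes ran the other way. They made up 0.521, 0.331 and 0.529% of summed FPKM in Primed MSC, 0.809, 0.323 and 0.344% in Control MSC and 0.332, 1.07 and 0.697% in IUA, against 1.71, 2.77 and 3.08% in Sham. Every library of the 3 IUA groups was below every Sham library. Leaving the 100 genes of highest mean level out of each total, among them Krt8 and Krt18, gave 0.227 to 0.373% in Primed MSC, 0.217 to 0.512% in Control MSC and 0.225 to 0.586% in IUA, against 0.792 to 1.43% in Sham. In a bulk library, fewer epithelial cells in the sort and less epithelial RNA per cell cannot be told apart.

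**Figure D1:**
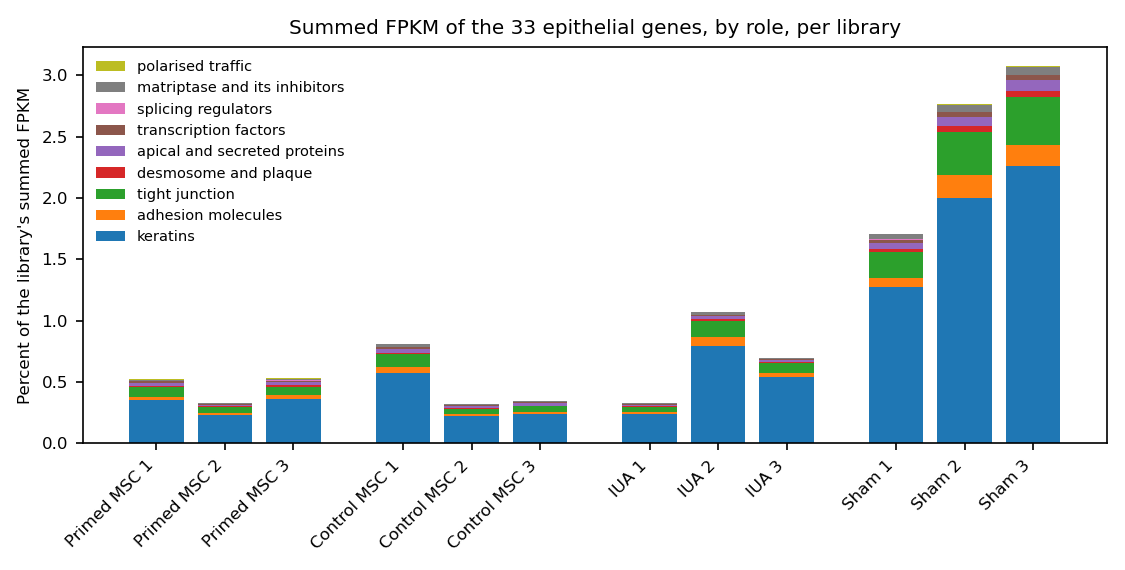
Share of each library's summed FPKM (percent, vertical axis) held by the 33 epithelial genes, shown library by library (n = 3 in each group). The IUA groups lie between 0.323 and 1.07%, below the 3 Sham libraries at 1.71 to 3.08%.

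Each gene was tested with limma on log2(FPKM + 1), with Benjamini-Hochberg adjustment over the 11604 genes that reached 1 FPKM in at least 3 libraries. Of the 33 genes, 32 were tested, all except Tjp3. All 32 fell in IUA against Sham, where 45% of all tested genes fell, 11.1% rose and 56.2% were called in either direction. All 32 also fell in Control MSC against Sham (42.7% of all tested genes fell, 14.1% rose, 56.8% either) and in Primed MSC against Sham (45% fell, 14.5% rose, 59.5% either). Grhl2 passed the level filter only through its Sham values and so had to differ. The other 31 reached the filter within the IUA groups alone, and all 31 fell in each of the 3 comparisons.

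The size of the change set the epithelial genes off from the table as a whole more than the count did. Their median log2 change was -1.81 in IUA against Sham, where the median of all tested genes was -0.35. It was -2.01 in Control MSC against Sham, where all tested genes had a median of -0.30, and -1.85 in Primed MSC against Sham, where that median was -0.33. Single genes ranged between -2.27 (Elf3) and -0.97 (Grhl2) in IUA, between -2.55 and -0.76 in Control MSC and between -2.76 (Krt18) and -0.80 in Primed MSC. Because the whole table leans lower in the IUA groups, the background depends on scaling: with median-ratio scaling of the libraries the median of all genes in IUA against Sham was -0.09, 27% of genes fell (3138 lower, 2235 higher, against 5226 lower and 1291 higher as deposited), and the epithelial median was -1.51 with 31 of 32 called lower, all but Epcam. With quantile normalization the split was 2645 lower to 2594 higher, and all 32 fell. The split moved likewise in Control MSC (3373 lower and 2523 higher with median-ratio scaling, 4960 and 1632 as deposited) and in Primed MSC (3429 and 2729, against 5219 and 1684).

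The libraries were also compared gene by gene. In 32 of the 33 genes every IUA library was below every Sham library, a pattern that 47.7% of all tested genes showed; the exception was Epcam. All 33 genes separated in this way in Control MSC (49.6% of tested genes), and 32 in Primed MSC (50.6%), where Tjp3 overlapped.

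**Figure D2:**
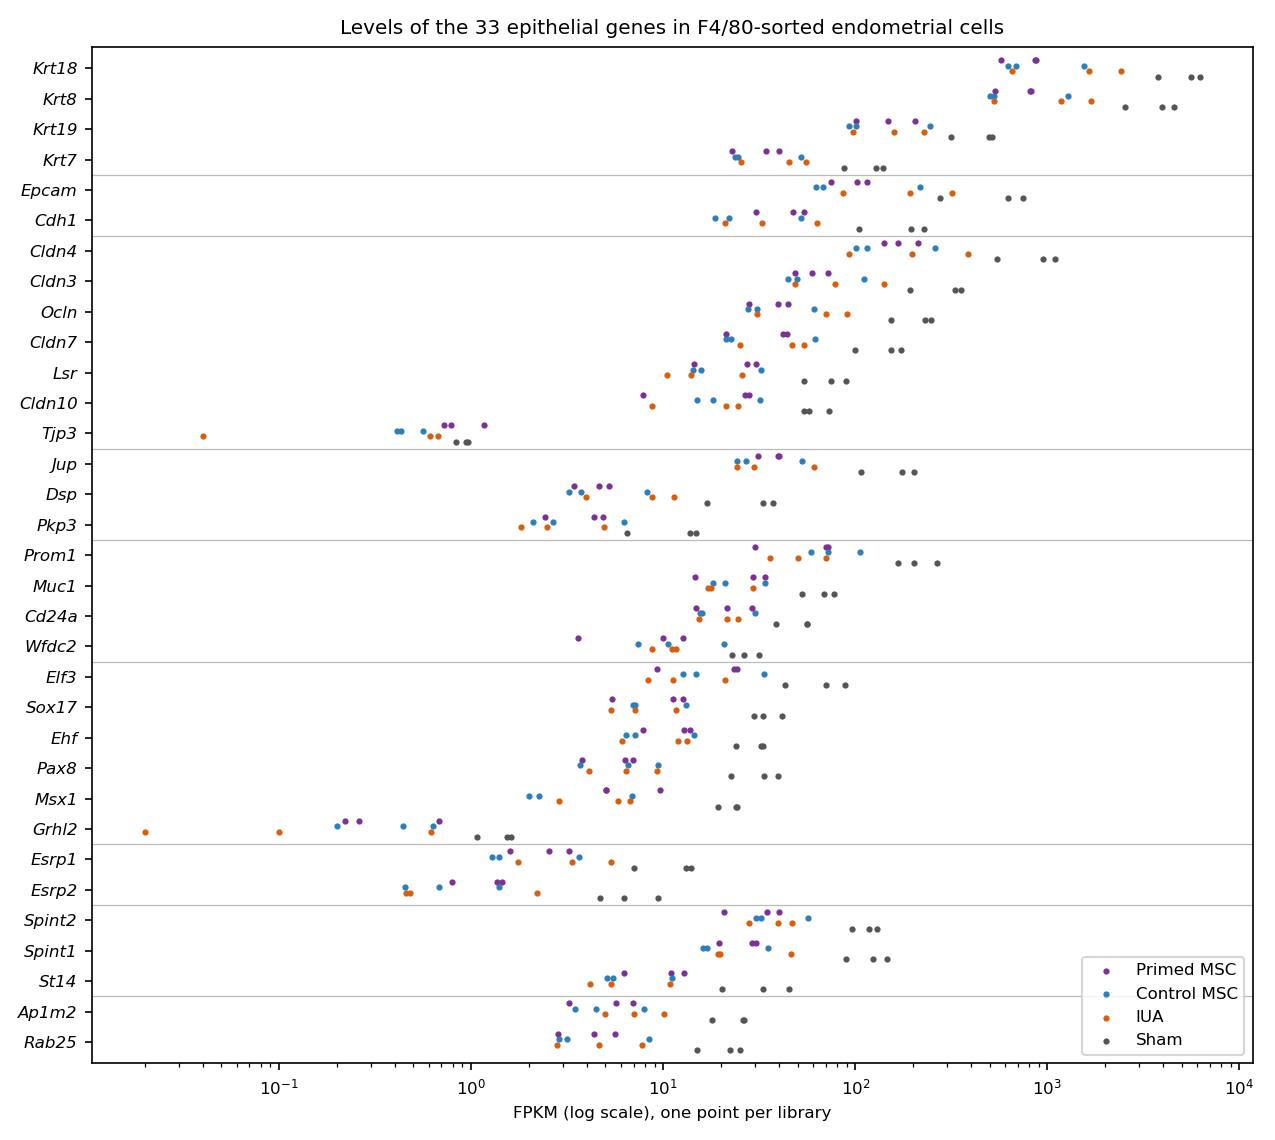
Level of each of the 33 epithelial genes (FPKM, log axis), with a point per library coloured by group. Sham points stand to the right of those of the 3 IUA groups in nearly all genes, with exceptions in Epcam and Tjp3.

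Keratins were the most abundant class and held most of the summed level. Krt8 (chr15:101996698-102004482) and Krt18 (chr15:102028180-102032027) encode the filament pair of simple epithelia, in which each protein needs the other to polymerise. Krt8 had 813, 532 and 822 FPKM in Primed MSC, 1287, 500.3 and 530 FPKM in Control MSC and 529, 1684 and 1181 FPKM in IUA, against 2535, 3937 and 4545 FPKM in Sham. The highest library of the IUA groups, IUA replicate 2, was below the lowest Sham library. Krt8 fell, with log2 changes and standard errors of -2.33 ± 0.43 in Primed MSC (adjusted p = 0.000693), -2.35 ± 0.43 in Control MSC (adjusted p = 0.000733) and -1.81 ± 0.43 in IUA (adjusted p = 0.00392). Krt8 also has an annotated processed pseudogene, with which reads could be shared.

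Krt18 had 859.8, 574 and 869.6 FPKM in Primed MSC, 1543, 621 and 690 FPKM in Control MSC and 652, 2413 and 1638 FPKM in IUA, against 3782, 5625 and 6230.1 FPKM in Sham. It was more abundant than Krt8 in every library, by least in Primed MSC, and its lowest values were again in IUA replicate 1, Control MSC replicates 2 and 3 and the Primed MSC libraries. Krt18 fell, with log2 changes of -2.76 ± 0.44 in Primed MSC (adjusted p = 0.000271), -2.55 ± 0.44 in Control MSC (adjusted p = 0.000517) and -1.89 ± 0.44 in IUA (adjusted p = 0.00345). Krt19, a small keratin of ductal and simple epithelia, averaged 151 ± 52.5 FPKM in Primed MSC, 146 ± 85.5 FPKM in Control MSC and 161 ± 64.98 FPKM in IUA, against 443 ± 109.5 FPKM in Sham (SD, n = 3 each). Krt7, a keratin of ductal epithelia also on chromosome 15, averaged 32.4 ± 8.86 FPKM in Primed MSC, 33.4 ± 16.4 FPKM in Control MSC and 42.1 ± 15.4 FPKM in IUA, against 118 ± 27.7 FPKM in Sham. Both fell in all 3 comparisons, with smaller log2 changes than Krt8: -1.51 ± 0.397 and -1.51 ± 0.34 in IUA.

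Of the adhesion molecules, Epcam (chr17:87635979-87651129) encodes a surface glycoprotein through which epithelial cells adhere to each other, and Cdh1 encodes E-cadherin, the core of the adherens junction. Epcam had 115, 74.9 and 102 FPKM in Primed MSC, 218, 68.1 and 62.2 FPKM in Control MSC and 86.5, 319.8 and 192 FPKM in IUA, against 277, 742 and 627 FPKM in Sham. IUA replicate 2 was above Sham replicate 1, which makes Epcam the only tested gene of the 32 with overlapping IUA and Sham groups. Its fall in IUA was -1.53 ± 0.54 (adjusted p = 0.0292), against -2.36 ± 0.54 in Control MSC (adjusted p = 0.00276) and -2.38 ± 0.54 in Primed MSC (adjusted p = 0.00238). The IUA call was lost without Sham replicate 2 (adjusted p = 0.108), Sham replicate 3 (0.0862), IUA replicate 1 (0.125) or IUA replicate 3 (0.0557).

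Cdh1 had 47.4, 30.2 and 54.1 FPKM in Primed MSC, 51.9, 21.9 and 18.7 FPKM in Control MSC and 21, 63.5 and 32.9 FPKM in IUA, against 105, 194 and 228 FPKM in Sham. The groups did not overlap with Sham, and within IUA replicate 2 was the highest library and replicate 1 the lowest. Cdh1 fell, with log2 changes of -1.94 ± 0.44 in Primed MSC (adjusted p = 0.00256), -2.55 ± 0.44 in Control MSC (adjusted p = 0.00053) and -2.21 ± 0.44 in IUA (adjusted p = 0.00144).

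The tight junction genes include the sealing claudins. Cldn4 (chr5:134945119-134946934) and Cldn3 (chr5:134986214-134987472) are neighbouring claudin genes on chromosome 5. Cldn4, whose promoter is printed above, had 212, 141 and 168 FPKM in Primed MSC, 261, 101 and 115 FPKM in Control MSC and 93.01, 387 and 197 FPKM in IUA, against 546, 951 and 1089.5 FPKM in Sham. Cldn3 had 71.7, 48.4 and 59.7 FPKM in Primed MSC, 110.5, 44.7 and 49.6 FPKM in Control MSC and 48.2, 141 and 78 FPKM in IUA, against 193, 357 and 332 FPKM in Sham. In both genes the 3 Sham libraries stood apart from the other 9. Cldn4 fell, with log2 changes of -2.26 ± 0.47 in Primed MSC (adjusted p = 0.00143), -2.51 ± 0.47 in Control MSC (adjusted p = 0.000839) and -2.098 ± 0.47 in IUA (adjusted p = 0.00274). Those of Cldn3 were -2.24 ± 0.399 in Primed MSC (adjusted p = 0.000532), -2.16 ± 0.399 in Control MSC (adjusted p = 0.000756) and -1.79 ± 0.399 in IUA (adjusted p = 0.00263).

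The other tight junction genes were lower too. Ocln, which encodes occludin, averaged 37.4 ± 8.46 FPKM in Primed MSC, 39.9 ± 18.5 FPKM in Control MSC and 63.6 ± 30.1 FPKM in IUA, against 210.2 ± 50.2 FPKM in Sham. Cldn7, a claudin that also lines lateral membranes, averaged 35.7 ± 12.5 FPKM in Primed MSC, 35.03 ± 22.8 FPKM in Control MSC and 42.05 ± 15.2 FPKM in IUA, against 141 ± 37.6 FPKM in Sham. Lsr encodes angulin-1, which marks the corners where cells meet, and its mean levels were 24.04 ± 8.44 FPKM in Primed MSC, 20.8 ± 9.99 FPKM in Control MSC and 16.6 ± 7.898 FPKM in IUA, against 73.01 ± 17.8 FPKM in Sham. Cldn10, a claudin that forms ion-selective pores, averaged 20.9 ± 11.3 FPKM in Primed MSC, 21.7 ± 9.07 FPKM in Control MSC and 18.1 ± 8.35 FPKM in IUA, against 61.4 ± 10 FPKM in Sham. All 4 fell in each comparison against Sham, with log2 changes between -2.13 (Lsr) and -1.76 (Cldn7) in IUA; the fall of Cldn10 in Control MSC was lost without Control MSC replicate 2 (log2 change -1.30, adjusted p = 0.057).

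Tjp3, which encodes the junction scaffold ZO-3, was the gene near the limit of detection. It had 0.78, 0.72 and 1.17 FPKM in Primed MSC, 0.41, 0.43 and 0.56 FPKM in Control MSC and 0.61, 0.67 and 0.04 FPKM in IUA, against 0.94, 0.83 and 0.96 FPKM in Sham. Its estimated support was at most 16 fragments in any library, Primed MSC replicate 3 was above every Sham library, and no test was made.

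Among the desmosome genes, Jup encodes plakoglobin, shared by desmosomes and adherens junctions, and Dsp encodes desmoplakin, which ties keratin filaments to the desmosome. Jup had 39.7, 30.98 and 40.3 FPKM in Primed MSC, 53.02, 26.96 and 24.1 FPKM in Control MSC and 29.6, 61.2 and 24.3 FPKM in IUA, against 106, 174 and 202 FPKM in Sham. Dsp had 4.63, 3.41 and 5.23 FPKM in Primed MSC, 8.27, 3.71 and 3.23 FPKM in Control MSC and 3.98, 11.4 and 8.72 FPKM in IUA, against 16.98, 33 and 37.2 FPKM in Sham. Neither gene overlapped between Sham and any other group. Jup fell, with log2 changes of -2.05 ± 0.36 in Primed MSC (adjusted p = 0.000455), -2.22 ± 0.36 in Control MSC (adjusted p = 0.000321) and -2.103 ± 0.36 in IUA (adjusted p = 0.000551). For Dsp the changes were -2.41 ± 0.38 in Primed MSC (adjusted p = 0.000257), -2.33 ± 0.38 in Control MSC (adjusted p = 0.000376) and -1.76 ± 0.38 in IUA (adjusted p = 0.00235). Pkp3, a plakophilin of the desmosomal plaque, averaged 3.89 ± 1.298 FPKM in Primed MSC, 3.67 ± 2.25 FPKM in Control MSC and 3.07 ± 1.64 FPKM in IUA, against 11.7 ± 4.56 FPKM in Sham, and also fell in all 3 comparisons.

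Apical and secreted proteins showed the same direction with smaller changes in part of the group. Prom1 encodes prominin-1 (CD133), found on membrane protrusions of the apical surface, and had 71.8, 29.96 and 70.3 FPKM in Primed MSC, 106, 58.6 and 72.2 FPKM in Control MSC and 36.1, 70.1 and 50.2 FPKM in IUA, against 167, 203 and 266 FPKM in Sham. Muc1, the transmembrane mucin of the uterine surface, had 33.8, 14.7 and 29.4 FPKM in Primed MSC, 33.9, 18.1 and 21.02 FPKM in Control MSC and 17.2, 29.5 and 17.7 FPKM in IUA, against 52.6, 77.3 and 69.05 FPKM in Sham. In Prom1 the Control MSC group held the highest library outside Sham, and in Muc1 the 9 libraries of the IUA groups were closer together. Prom1 fell, with log2 changes of -1.94 ± 0.34 in Primed MSC (adjusted p = 0.000499), -1.43 ± 0.34 in Control MSC (adjusted p = 0.00376) and -2.02 ± 0.34 in IUA (adjusted p = 0.000543). For Muc1 the changes were -1.38 ± 0.31 in Primed MSC (adjusted p = 0.00254), -1.44 ± 0.31 in Control MSC (adjusted p = 0.00217) and -1.61 ± 0.31 in IUA (adjusted p = 0.00124).

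Cd24a encodes a small lipid-anchored glycoprotein that leukocytes carry as well as epithelium. It averaged 21.8 ± 7.05 FPKM in Primed MSC, 20.6 ± 8.35 FPKM in Control MSC and 20.4 ± 4.59 FPKM in IUA, against 50.4 ± 10.1 FPKM in Sham. It fell in each comparison, with log2 changes of -1.203 ± 0.29 in Primed MSC (adjusted p = 0.00326), -1.298 ± 0.29 in Control MSC (adjusted p = 0.00226) and -1.27 ± 0.29 in IUA (adjusted p = 0.00285). Wfdc2, a secreted protein of reproductive tract epithelium, averaged 8.74 ± 4.68 FPKM in Primed MSC, 12.9 ± 6.94 FPKM in Control MSC and 10.5 ± 1.51 FPKM in IUA, against 26.95 ± 4.44 FPKM in Sham. Its fall in Control MSC was -1.11 ± 0.38 (adjusted p = 0.0266) and was lost without Sham replicate 2 (adjusted p = 0.0854), Sham replicate 3 (0.0575), Control MSC replicate 2 (0.117) or Control MSC replicate 3 (0.0721). The fall of Wfdc2 in IUA (-1.28 ± 0.38, adjusted p = 0.0138) was lost without Sham replicate 2 (adjusted p = 0.0506).

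The transcription factors were of moderate to low abundance, and all 6 fell in each comparison. Elf3, an ETS factor named for its epithelial expression, had 23.4, 9.3 and 24.1 FPKM in Primed MSC, 33.6, 12.7 and 14.9 FPKM in Control MSC and 8.28, 20.97 and 11.2 FPKM in IUA, against 42.9, 70.2 and 88.6 FPKM in Sham. Sox17, an HMG-box factor of the uterine glands and lining that endothelium also expresses, had 11.2, 5.39 and 12.7 FPKM in Primed MSC, 13.2, 7.16 and 6.97 FPKM in Control MSC and 7.15, 11.6 and 5.34 FPKM in IUA, against 33.05, 41.4 and 29.7 FPKM in Sham. In both genes the Sham libraries were above all others, and IUA replicate 1 was the lowest library for Elf3. Elf3 fell, with log2 changes of -1.82 ± 0.44 in Primed MSC (adjusted p = 0.00378), -1.74 ± 0.44 in Control MSC (adjusted p = 0.0055) and -2.27 ± 0.44 in IUA (adjusted p = 0.00125). For Sox17 the changes were -1.79 ± 0.32 in Primed MSC (adjusted p = 0.000606), -1.86 ± 0.32 in Control MSC (adjusted p = 0.000534) and -2.03 ± 0.32 in IUA (adjusted p = 0.000414).

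Pax8, the paired-box factor of the Müllerian tract, averaged 5.69 ± 1.705 FPKM in Primed MSC, 6.55 ± 2.85 FPKM in Control MSC and 6.61 ± 2.61 FPKM in IUA, against 31.8 ± 8.66 FPKM in Sham. Msx1, a homeobox factor of the uterine lining around implantation, averaged 6.57 ± 2.66 FPKM in Primed MSC, 3.72 ± 2.75 FPKM in Control MSC and 5.13 ± 2.02 FPKM in IUA, against 22.4 ± 2.81 FPKM in Sham. Ehf, an ETS factor related to Elf3, averaged 11.5 ± 3.19 FPKM in Primed MSC, 9.32 ± 4.48 FPKM in Control MSC and 10.4 ± 3.81 FPKM in IUA, against 29.6 ± 5.07 FPKM in Sham. Grhl2, the grainyhead-like factor that sustains junction genes, had 0.22, 0.26 and 0.68 FPKM in Primed MSC, 0.63, 0.2 and 0.44 FPKM in Control MSC and 0.1, 0.62 and 0.02 FPKM in IUA, against 1.07, 1.53 and 1.62 FPKM in Sham. Grhl2 thus had the smallest log2 change of the set on the log2(FPKM + 1) scale, which understates changes of low genes: -0.803 ± 0.21 in Primed MSC (adjusted p = 0.00509), -0.76 ± 0.21 in Control MSC (adjusted p = 0.00749) and -0.97 ± 0.21 in IUA (adjusted p = 0.00196).

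The epithelial splicing regulators Esrp1 and Esrp2, RNA-binding proteins that select the epithelial forms of transcripts, were also low. Esrp1 had 3.24, 1.59 and 2.55 FPKM in Primed MSC, 3.63, 1.28 and 1.39 FPKM in Control MSC and 1.75, 5.37 and 3.33 FPKM in IUA, against 7.01, 13.9 and 13.2 FPKM in Sham. Esrp2 had 1.37, 0.79 and 1.45 FPKM in Primed MSC, 1.39, 0.45 and 0.68 FPKM in Control MSC and 0.48, 2.19 and 0.46 FPKM in IUA, against 4.7, 9.33 and 6.22 FPKM in Sham. Every library outside Sham was below the lowest Sham value in both genes. Esrp1 fell, with log2 changes of -1.81 ± 0.36 in Primed MSC (adjusted p = 0.00107), -2.02 ± 0.36 in Control MSC (adjusted p = 0.000604) and -1.49 ± 0.36 in IUA (adjusted p = 0.00417). For Esrp2 the changes were -1.78 ± 0.32 in Primed MSC (adjusted p = 0.000526), -2.06 ± 0.32 in Control MSC (adjusted p = 0.000245) and -1.98 ± 0.32 in IUA (adjusted p = 0.000413).

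Matriptase, the membrane serine protease encoded by St14, and its inhibitors HAI-1 and HAI-2, encoded by Spint1 and Spint2, act together at the epithelial surface. Spint2 had 34.6, 20.6 and 39.98 FPKM in Primed MSC, 56.7, 30.4 and 32.4 FPKM in Control MSC and 27.9, 46.9 and 39.6 FPKM in IUA, against 96.2, 118 and 129 FPKM in Sham. Spint1 had 28.9, 19.6 and 30.2 FPKM in Primed MSC, 35.2, 16.98 and 16.1 FPKM in Control MSC and 19.6, 46.1 and 19.2 FPKM in IUA, against 89.6, 124 and 146 FPKM in Sham. The 3 groups of IUA mice overlapped each other in both genes, and none overlapped Sham. Spint2 fell, with log2 changes of -1.86 ± 0.28 in Primed MSC (adjusted p = 0.000181), -1.54 ± 0.28 in Control MSC (adjusted p = 0.000667) and -1.58 ± 0.28 in IUA (adjusted p = 0.000701). For Spint1 the changes were -2.14 ± 0.35 in Primed MSC (adjusted p = 0.000332), -2.41 ± 0.35 in Control MSC (adjusted p = 0.000193) and -2.13 ± 0.35 in IUA (adjusted p = 0.000495). St14 averaged 10.04 ± 3.403 FPKM in Primed MSC, 7.22 ± 3.37 FPKM in Control MSC and 6.75 ± 3.56 FPKM in IUA, against 32.8 ± 12.4 FPKM in Sham, and fell in each, with a log2 change of -2.15 ± 0.38 in IUA.

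Polarised traffic was represented by Ap1m2, a subunit of the epithelial sorting adaptor AP-1B, and Rab25, a small GTPase of recycling endosomes. Ap1m2 had 5.69, 3.23 and 6.99 FPKM in Primed MSC, 7.97, 3.47 and 4.47 FPKM in Control MSC and 4.97, 10.1 and 7.08 FPKM in IUA, against 17.97, 26.4 and 26.1 FPKM in Sham. Rab25 had 4.36, 2.83 and 5.6 FPKM in Primed MSC, 8.41, 3.16 and 2.86 FPKM in Control MSC and 2.8, 7.76 and 4.62 FPKM in IUA, against 14.97, 22.3 and 25 FPKM in Sham. Sham was again separate from the other 9 libraries. Ap1m2 fell, with log2 changes of -1.99 ± 0.31 in Primed MSC (adjusted p = 0.000224), -2.002 ± 0.31 in Control MSC (adjusted p = 0.00025) and -1.57 ± 0.31 in IUA (adjusted p = 0.00126). For Rab25 the changes were -2.05 ± 0.37 in Primed MSC (adjusted p = 0.000602), -2.001 ± 0.37 in Control MSC (adjusted p = 0.000795) and -1.898 ± 0.37 in IUA (adjusted p = 0.00126).

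Neither kind of stromal cell gave a called difference relative to IUA in any of the 32 tested genes of the set. In Control MSC against IUA, limma called 0 of the 32 genes, and none had an unadjusted p under 0.05; 0.853% of all tested genes were called, 0.724% higher and 0.129% lower. The epithelial log2 changes were below 0 in 21 genes and above 0 in 11, with a median of -0.14 and a range of -0.84 (Epcam) to 0.60 (Prom1). In Primed MSC against IUA, 0 of 32 were called and none had an unadjusted p under 0.05, although 19.1% of all tested genes were called, 12.2% higher and 6.97% lower. Their median was -0.04, with 17 below 0 and 15 above, and the range was -0.86 to 0.55. In Primed MSC against Control MSC, 0 of 32 were called and none had an unadjusted p under 0.05, with 0.112% of all tested genes called (0.0776% higher, 0.0345% lower), a median of 0.04 and the largest difference in Msx1 (0.78).

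These comparisons were not precise enough to show that the groups are alike. The 95% intervals of Krt8 were -1.48 to 0.397 in Control MSC against IUA, -1.46 to 0.42 in Primed MSC against IUA and -0.92 to 0.96 in Primed MSC against Control MSC. For the same 3 comparisons in turn, those of Cdh1 were -1.301 to 0.63, -0.699 to 1.23 and -0.36 to 1.57, and those of Elf3 were -0.43 to 1.499, -0.52 to 1.41 and -1.05 to 0.88. Without IUA replicate 1, 2 genes were called lower in Primed MSC against IUA: Krt18 (log2 change -1.40 ± 0.37, adjusted p = 0.0219) and Ocln (-1.09 ± 0.32, adjusted p = 0.0342). With all libraries these genes had -0.86 ± 0.44 (adjusted p = 0.186) and -0.65 ± 0.38 (adjusted p = 0.245). A moderated F test over the 4 groups called all 32 genes, against 67% of all tested genes.

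**Figure D3:**
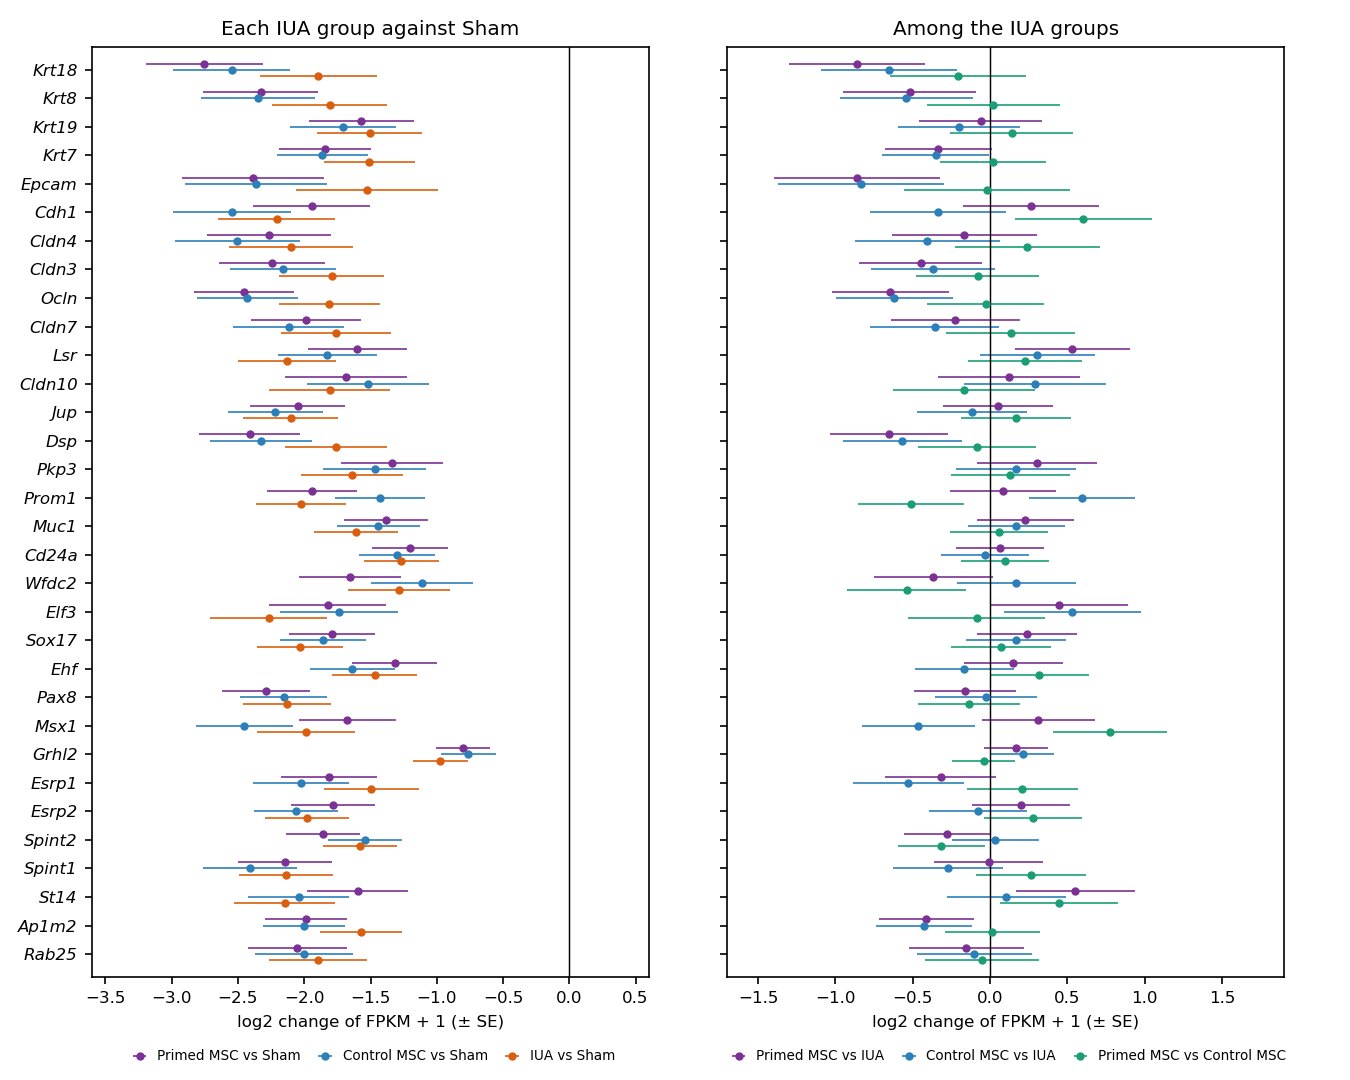
Log2 change of FPKM + 1 with its standard error (horizontal axis) for the 32 tested genes, each IUA group against Sham on the left and the IUA groups against each other on the right. All points on the left lie between -2.76 and -0.76, and those on the right lie between -0.86 and 0.78, on both sides of 0.

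The wide intervals came with libraries that differed within their groups in nearly all epithelial genes together. Control MSC replicate 1 was the highest of its group in 32 of the 32 tested genes, IUA replicate 2 in 30 and Primed MSC replicate 3 in 25. Primed MSC replicate 2 was the lowest of its group in 31 genes, Sham replicate 1 in 30 and IUA replicate 1 in 23. The median gene stood at -1.69, -2.47 and -1.57 relative to the Sham mean (log2 scale) in the 3 Primed MSC libraries, at -1.26, -2.37 and -2.25 in Control MSC and at -2.35, -1.20 and -1.74 in IUA, against -0.42, 0.16 and 0.27 in Sham.

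Across the 12 libraries the pairwise Pearson correlation of log2 levels between epithelial genes ran from 0.742 to 0.997, with a median of 0.939 over 496 pairs. After each group's mean was subtracted, the deviations still correlated at 0.319 to 0.994, with a median of 0.853. Each gene was also correlated within groups with the median of the other genes, a different measure from the pairwise one. This correlation was highest for Spint2, Elf3 and Cldn7 (0.986, 0.970 and 0.970) and lowest for Grhl2, Msx1 and Esrp2 (0.695, 0.706 and 0.750). Grhl2 and Esrp2 rest on few fragments, an estimated 1 to 88 and 5 to 103 per library. These correlations share libraries and scaling and are given without a test.

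**Figure D4:**
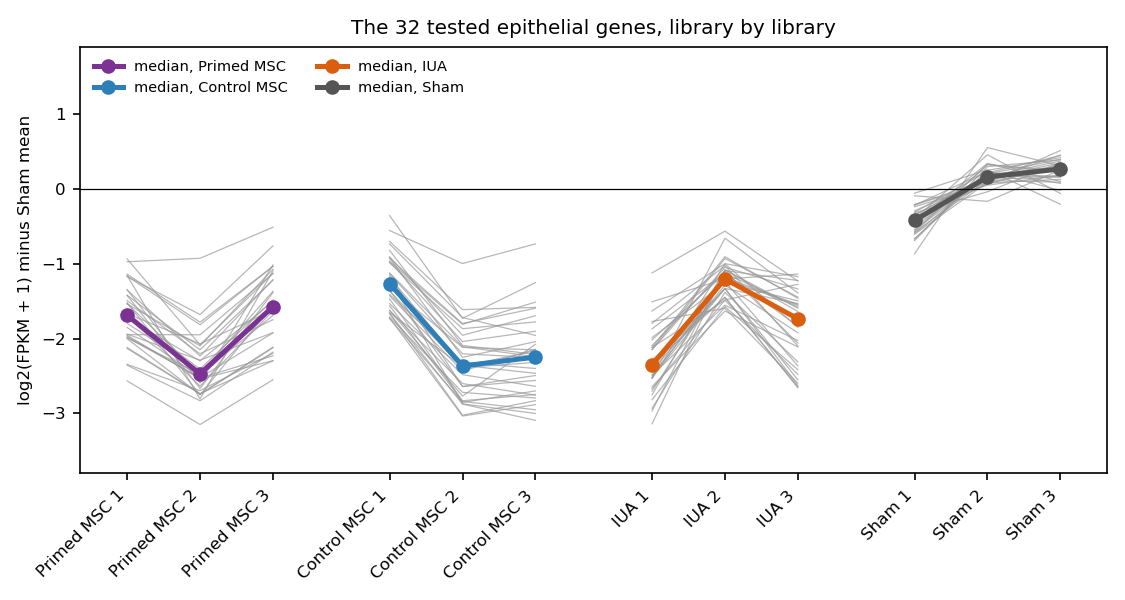
Log2 level of each of the 32 tested genes relative to its Sham mean in every library, with a thin line per gene and the median gene marked. Genes move together from library to library, with medians of -1.20 in IUA replicate 2 and -2.47 in Primed MSC replicate 2; the order of replicates carries no meaning.

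Ratios to Krt8 within a library set aside only the movement that a gene shares with Krt8 in equal proportion. Differences between libraries of a group remained. IUA replicate 1, with the smallest epithelial share of its group, had the highest IUA ratios of Krt19, Muc1 and Cd24a. Primed MSC replicate 2, also with the smallest share of its group, had the lowest Muc1 ratio there. Krt18 stood at 106, 108 and 106% of Krt8 in Primed MSC, 119.9, 124 and 130.2% in Control MSC and 123, 143 and 139% in IUA, against 149, 143 and 137% in Sham. The 3 Primed MSC values were the lowest of the 12 and did not overlap any other group. Krt19 relative to Krt8 went the other way, at 18.3, 18.9 and 24.95% in Primed MSC, 19.01, 20.1 and 17.5% in Control MSC and 18.3, 13.5 and 13.4% in IUA, against 12.5, 12.7 and 11.3% in Sham. All 9 libraries of the IUA groups lay above every Sham library, with IUA replicates 2 and 3 closest to Sham.

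Muc1 was 4.16, 2.76 and 3.58% of Krt8 in Primed MSC, 2.64, 3.62 and 3.97% in Control MSC and 3.25, 1.75 and 1.495% in IUA, against 2.07, 1.96 and 1.52% in Sham, while Cd24a was 2.65, 2.78 and 3.52% in Primed MSC, 2.35, 3.11 and 3.002% in Control MSC and 2.91, 1.45 and 1.82% in IUA, against 1.53, 1.43 and 1.24% in Sham. In both genes the treated groups and IUA replicate 1 were above all Sham libraries, and in Cd24a IUA replicate 3 was too. Cdh1 was 5.83, 5.68 and 6.58% of Krt8 in Primed MSC, the 3 highest values of the 12, 4.04, 4.38 and 3.52% in Control MSC and 3.97, 3.77 and 2.78% in IUA, against 4.14, 4.93 and 5.02% in Sham. Ocln kept close to the same proportion, between 4.76 and 6.05% in all libraries. With 3 libraries a group the smallest two-sided exact permutation p is 0.10, so these ratios were not tested, and they were picked after the values were seen.

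**Figure D5:**
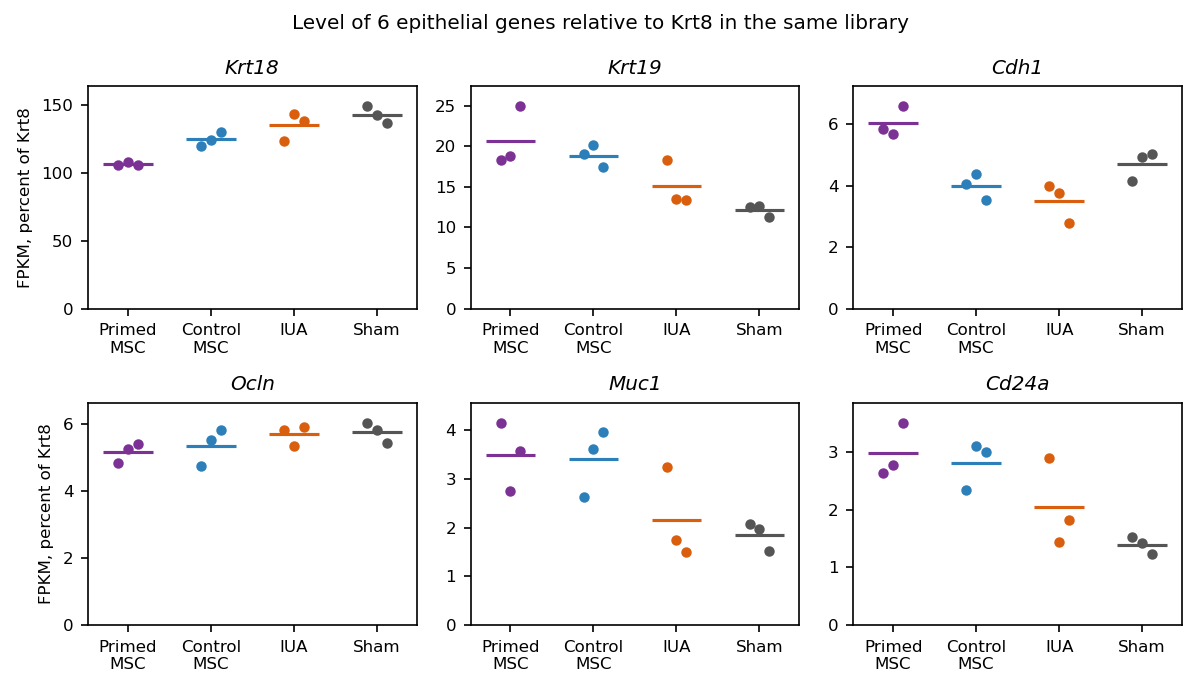
Level of each gene as a percent of Krt8 in the same library (vertical axes, each starting at 0), with a point per library and a bar at the group mean. Krt18 is lowest in Primed MSC (106 to 108%), and Krt19 is higher in Primed MSC and Control MSC (17.5 to 25.0%) and in IUA (13.4 to 18.3%) than in Sham (11.3 to 12.7%).

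Epithelial genes outside the 33 moved the same way. Of 30 further junction and polarity genes 29 were in the table and 26 tested, and in IUA against Sham 24 fell and none rose, where 45% of all tested genes fell, with a median log2 change of -1.62. The lowest p-values belonged to Tmem30b, a flippase subunit (-2.19 ± 0.29, adjusted p = 0.000161), Tjp1, which encodes ZO-1 (-1.63 ± 0.22, adjusted p = 0.000181), Itgb4, the integrin of hemidesmosomes (-1.59 ± 0.22, adjusted p = 0.00022), and Llgl2, a basolateral polarity protein (-2.401 ± 0.37, adjusted p = 0.000326). All 8 tested genes of 14 further epithelial transcription factors fell, with a median of -1.68, among them the zinc-finger repressors of mesenchymal genes Ovol1 (-1.45 ± 0.16) and Ovol2 (-1.704 ± 0.28), and Klf5 (-1.96 ± 0.36). Neither list held a gene called between any pair of IUA groups. Of the 14 transcription factors 8, 8 and 9 reached 1 FPKM in Sham, against 7 in each IUA library and 6 to 8 in the treated groups. Of the junction and polarity genes 25, 26 and 26 did in Sham, against 21, 25 and 20 in IUA. Genes of either list that passed the level filter only through Sham had to differ, and they were not counted apart.

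Further keratins fell about as often as the table as a whole. Of 8 tested, 4 fell in IUA against Sham, near the 45% of all tested genes, and none rose (median -1.05 against -0.35 for all genes). In Primed MSC and in Control MSC 3 of 8 fell (medians -0.40 and -0.90). In Sham 8, 5 and 7 of the further keratins reached 1 FPKM, against 4, 5 and 5 in IUA, so the same limit of the level filter applies. Those that fell in IUA were the stress and basal keratin Krt17 (-2.88 ± 0.396, adjusted p = 0.000193), Krt23 (-2.38 ± 0.42, adjusted p = 0.000736), Krt20 (-1.21 ± 0.24, adjusted p = 0.00146) and Krt80 (-1.15 ± 0.29, adjusted p = 0.00521). Krt14, a keratin of stratified epithelium picked after its values were seen, had 0.18, 1.91 and 23.7 FPKM in Primed MSC, 0.33, 0.09 and 0.18 FPKM in Control MSC and 0.26, 0.24 and 0.03 FPKM in IUA, against 1.77, 0.31 and 0.46 FPKM in Sham. The high value was in Primed MSC replicate 3, which also held the highest Krt5, its filament partner, at 2.27 FPKM.

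Genes of a uterine gland list did not move as a block with the epithelial genes. The list shares a member with the further transcription factors, and not all of its products are secreted. Its levels are read over all cells of the sort. Of 13 tested, 5 rose and 3 fell in Primed MSC against Sham (median -0.32), 3 rose and 3 fell in Control MSC (median 0.55), and 3 rose and 7 fell in IUA (median -0.90). Of all tested genes 45% fell and 14.5% rose in Primed MSC against Sham, 42.7% and 14.1% in Control MSC, and 45% and 11.1% in IUA. Against IUA, 2 of the 13 gland genes rose and 0 fell in Control MSC (0.724% and 0.129% of all tested genes). In Primed MSC against IUA 2 also rose and 0 fell (12.2% and 6.97% of all tested genes). The implantation serine proteases Prss28 and Prss29, picked after their values were seen, rose in Control MSC against IUA, with log2 changes of 4.78 ± 0.71 (adjusted p = 0.0155) and 4.64 ± 0.83 (adjusted p = 0.034), in a comparison where none of the 32 epithelial genes was called. Prss28 had 48.7, 21.5 and 142 FPKM in Primed MSC, 359.7, 255 and 196 FPKM in Control MSC and 5.08, 3.39 and 31.6 FPKM in IUA, against 83.01, 59.3 and 109 FPKM in Sham. The summed gland list made up 0.114 to 0.407% in Primed MSC, 0.326 to 0.588% in Control MSC and 0.1103 to 0.169% in IUA, against 0.263 to 0.369% in Sham.

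Known repressors of the epithelial state were split. Of 5 tested, 1 rose and 3 fell in IUA against Sham, where 11.1% of all tested genes rose and 45% fell. Zeb2, which macrophages also express, rose in IUA against Sham, with a log2 change of 1.03 ± 0.102 (adjusted p = 2.82e-05). Snai1 (-1.02 ± 0.24, adjusted p = 0.00379), Zeb1 (-1.01 ± 0.28, adjusted p = 0.00885) and Twist2 (-0.63 ± 0.2003, adjusted p = 0.0184) fell. In each Sham library 5 of the 6 repressors reached 1 FPKM, against 2 or 3 in each library of the IUA groups. Some that fell may thus have passed the level filter only through Sham, and such genes had to differ. These levels are read over all cells of the sort, and levels in the epithelial cells themselves were not measured.

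Markers of other non-macrophage cells were read against the 45% of all tested genes that fell in IUA against Sham and their median of -0.35. Endothelial markers fell in 13 of 14 tested genes in IUA against Sham (median -1.33), with summed shares of 0.0224 to 0.0278% in Primed MSC, 0.0224 to 0.0371% in Control MSC and 0.0261 to 0.0356% in IUA, against 0.0594 to 0.102% in Sham. Stromal markers, which include Esr1 and Pgr that uterine epithelium also expresses, fell in 7 of 12, a share not far above that of all genes (median -1.04), and the IUA and Sham shares of FPKM overlapped, with shares of 0.0232 to 0.0446% in Primed MSC, 0.0268 to 0.0479% in Control MSC and 0.0558 to 0.1597% in IUA, against 0.107 to 0.183% in Sham. Smooth muscle markers fell in 7 of 10 (median -1.003), with shares of 0.0291 to 0.0485% in Primed MSC, 0.0188 to 0.0374% in Control MSC and 0.0518 to 0.0665% in IUA, against 0.0817 to 0.268% in Sham. Mesothelial markers, a source of keratins other than the uterine lining, fell in 1 of 5 (median -0.37, close to that of all genes), and the IUA and Sham shares again overlapped, with shares of 0.0005801 to 0.00121% in Primed MSC, 0.000884 to 0.00301% in Control MSC and 0.00138 to 0.00665% in IUA, against 0.00327 to 0.00737% in Sham. In the treated groups against Sham these lists fell more often. Mesothelial markers fell in 4 of 5 in Primed MSC (median -1.57) and 2 of 5 in Control MSC (median -0.79). Endothelial markers fell in 14 of 14 and smooth muscle markers in 10 of 10 in both, and stromal markers in 9 and 10 of 12. Of all tested genes 45% fell in Primed MSC and 42.7% in Control MSC. No marker of the endothelial, stromal or muscle lists was at 0 in any library, and of the mesothelial list Muc16 was, in Primed MSC replicate 3. Macrophage markers rose in 15 of 20 in IUA against Sham, where 11.1% of all tested genes rose, and fell in 1 (median 1.0003). The part that any of these lists has in the epithelial changes was not tested.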

How the data were processed

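Poly(A) RNA of F4/80-selected endometrial cells was sequenced in 12 libraries, 3 in each of 4 groups taken from the titles. FPKM values, rounded to 2 decimals, were computed and deposited by the authors; of tools, the submitters' processing notes list RSEM, StringTie, HISAT2, fastp and DESeq2, and mm10 as build, without versions or roles. Rows were matched by symbol, and positions come from GENCODE M21 (GRCm38). The 33 genes and all marker lists were chosen with earlier results of these data known.

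Genes reaching 1 FPKM in at least 3 libraries (11604 of 22294) were fitted with limma 3.58.1 in R 4.3.3 on log2(FPKM + 1), with a mean per group over all 12 libraries, a trended variance and Benjamini-Hochberg adjustment over all tested genes; a gene was called at an adjusted p under 0.05. 6 comparisons were made, and the script was tested on simulated data. Values are given per library for the 2 most abundant genes of each role, for genes whose call differs from most, and from each further list for at most 4 genes with the lowest p in IUA against Sham; other named genes are said to be picked after their values were seen. A gene of the further transcription factors that this rule names is not reported here.

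Depth was estimated from the step between low values in 1796 genes with a single transcript of 500 to 1500 bases, where 84.2 to 93.7% of values lay within 0.15 of a whole number of steps (30% if spread evenly). The reads behind each gene follow from its median transcript length and are approximate. Because the files hold no counts, no count test was run. FPKM is scaled to the size of each library, so a rise of abundant genes lowers all others; alternative scalings, filters, offsets and left-out libraries were run.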

Additional observations from a re-analysis of the deposited data

How the results depend on the processing

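The comparisons were recomputed under 23 alternatives: a replicate block, array weights, a correction for GC content, TPM rescaling, quantile and median-ratio normalization, fits restricted to a pair of groups, other offsets (0.1 and 0.5), other level filters (none, or 5 FPKM), and each of the 12 libraries left out. Of 2193 pairs of a gene call and an alternative, 2175 were kept, 18 lost and 0 reversed. The losses were in Wfdc2 (8), Epcam (7), Grhl2 (2) and Cldn10 (1). Beside left-out libraries, Epcam in IUA was lost with no filter (adjusted p = 0.0581), median-ratio scaling (0.0744) and GC correction (0.0641), Wfdc2 in Control MSC with no filter (0.0509), median-ratio (0.0735) and quantile scaling (0.0756), and Grhl2 with quantile scaling in Control MSC (0.098) and Primed MSC (0.0861). The number of epithelial genes called was 29 to 32 in IUA against Sham, 30 to 32 in Control MSC against Sham and 30 to 32 in Primed MSC against Sham, lower counts including genes that no longer passed the filter. The median log2 change lay between -2.15 and -1.43 in IUA, -2.32 and -1.697 in Control MSC, and -2.102 and -1.55 in Primed MSC. The number called was 0 in Control MSC against IUA and in Primed MSC against Control MSC under all alternatives, and 0 to 2 in Primed MSC against IUA, with 2 only without IUA replicate 1.

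With single libraries left out, the counts were 29 to 32, 30 to 32 and 31 to 32 against Sham, 29 to 32 by the F test, 0 to 0 in Control MSC against IUA, 0 to 2 in Primed MSC against IUA and 0 to 0 in Primed MSC against Control MSC. Over all genes the counts among IUA groups were less stable: 5 to 329 in Control MSC against IUA, 1154 to 2560 in Primed MSC against IUA and 0 to 233 in Primed MSC against Control MSC, the last also 207 with the compared groups alone, 388 with array weights and 0 with no filter or the replicate block. The cause was not tested.

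With the replicate block, 32 genes were called in each comparison against Sham, 0 in each comparison among IUA groups and 32 by the F test, so it changed no call. Correlations of same-numbered libraries between groups ran from -0.29 to 0.29, with 3 of 18 over 0.1. The labels tie these libraries by number only, and with 3 libraries a group the correlations cannot exclude a pairing or shared batch. Low genes (Grhl2, Esrp2, Tjp3) are limited by the number of fragments, and log2(FPKM + 1) understates their change.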
